A study of Homo sapiens with 17 samples.

Results

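Lysosomes are the acidic compartments in which cells break down proteins, glycans and lipids, and 43 genes that build or serve them were followed in Jurkat cells exposed to ILT3.Fc. They were taken by name, as lysosomal genes and TFEB targets, with earlier results of these data known. Their shares set beside those of all genes therefore describe the list and do not test it. The list held 7 proteases, 10 glycosidases and sialidases, 4 sulfatases, 7 lipid enzymes or activators, 6 membrane proteins, 3 proton pump subunits, the transcription factors TFEB and TFE3, 3 autophagy genes and GRN. All 43 were present among the 25548 gene symbols of the RNA table, and 40 of them were among the 12015 genes that were tested, those averaging 1 FPKM or more over the libraries. FPKM counts sequenced fragments, scaled to the length of the gene and to the mapped fragments of the library.

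Jurkat is an established human line of T cell leukaemia. ILT3.Fc joins the outer part of the inhibitory receptor ILT3 to an antibody Fc fragment, and the aim given for the series is to identify a master regulator of what it does to these cells. Cells were kept without it (0 µg/ml) for 6 h (2 libraries), 12 h (1 library) or 24 h (2 libraries), or received 12.5 or 25 µg/ml for 6, 12 or 24 h (2 libraries for each dose and time), 17 in all. All groups shared the cell line, the RPMI-1640 medium with serum and the poly-A selection. The labels name no Fc control protein, and they call the second library of a group its duplicate without saying whether it was a separate culture. The p-values therefore measure only the spread between these libraries, which may be technical.

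Most lysosomal hydrolases are made in the endoplasmic reticulum, tagged with mannose 6-phosphate and carried to the lysosome, where the V-ATPase proton pump keeps the pH low enough for them to work. Many of their genes are known to be switched on together by TFEB and its relative TFE3, factors that bind a motif centred on CACGTG, often written as the CLEAR motif. When nutrients are plentiful, the kinase complex mTORC1 at the lysosome surface phosphorylates TFEB and keeps it in the cytoplasm. Activity of TFEB is thus set largely by its location and phosphorylation, which RNA levels do not measure.

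The libraries had FPKM sums of 504363 to 557389 and a relative depth of 0.68 to 1.0 of the deepest, with the absolute depth unknown. Markers of the T cell line were present, with 8 of 8 at a mean FPKM of at least 1, and their sum was 1472.6 to 1617.2 FPKM at 25 µg/ml and 1482.0 to 1573.8 FPKM in untreated cells. Of 6 myeloid markers only CD68, itself a lysosomal membrane protein, reached a mean FPKM of 1, and their sum was 2.9 to 4.4 FPKM at 25 µg/ml and 2.6 to 3.64 FPKM in untreated cells. The other 5 averaged 0.0026 to 0.456 FPKM, and the part of such cells in the results was not tested. In the B cell list CD79A (39.5 FPKM) and in the NK list NKG7 (5.2 FPKM) were the 1 of 3 markers at that level, and HBB, EPCAM, CDH1 and COL1A2 were listed at 0 in every library. One library stood out at 24 h, replicate 2 of 25 µg/ml: how far its genes lay from the mean library went with their GC content (Spearman correlation 0.56 over the genes, against -0.37 to 0.32 in the other libraries). The deviations of replicate 1 of 12.5 µg/ml at 6 h followed gene length (-0.6). Lane 4 held every 24 h library and the first replicate of the 6 h groups, and lane 5 the others. In bulk RNA, fewer cells of a kind and less RNA per cell cannot be told apart.

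Promoter windows of 300 bases, 250 before to 50 after the RefSeq gene start on GRCh38.p14, were at hand for 32 of the 43 genes. The TFEB-type motif TCACGTG, searched on both strands and so also as CACGTGA, was in 10 of these 32 (31.2%), against 7.42% of 8021 tested genes with a window and 3.71% of all 35116 windows. The shorter core CACGTG, which contains these matches, was in 11 of 32 (34.4%), against 13.2% of tested genes. The palindrome TCACGTGA, a subset of both, was in 7 of 32 (21.9%), against 2.54%. The genes were listed as lysosomal genes and TFEB targets, so the choice of list itself favours this motif. A gene was counted if any of its windows held the match, whereas the share of all windows counts each window. A match is a run of letters, not a measured binding site.

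The windows of 5 of the 7 genes that rose at 24 h and hold the motif are shown to give its place. Those of CTSA and LAMP1 are not shown. Each match to TCACGTG or its reverse complement is in capitals. NEU1 lies at chr6:31862772-31863071, minus strand. CTSD lies at chr11:1763878-1764177, minus strand. CLN3 lies at chr16:28492025-28492324, minus strand. GALNS lies at chr16:88856898-88857197, minus strand. ATP6V0D1 lies at chr16:67481108-67481407, minus strand.
NEU1: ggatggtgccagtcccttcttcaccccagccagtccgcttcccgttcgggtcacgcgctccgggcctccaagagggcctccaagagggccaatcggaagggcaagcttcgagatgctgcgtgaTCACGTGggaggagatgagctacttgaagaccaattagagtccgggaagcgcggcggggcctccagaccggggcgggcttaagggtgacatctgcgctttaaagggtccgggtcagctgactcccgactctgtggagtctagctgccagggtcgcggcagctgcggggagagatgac
CTSD: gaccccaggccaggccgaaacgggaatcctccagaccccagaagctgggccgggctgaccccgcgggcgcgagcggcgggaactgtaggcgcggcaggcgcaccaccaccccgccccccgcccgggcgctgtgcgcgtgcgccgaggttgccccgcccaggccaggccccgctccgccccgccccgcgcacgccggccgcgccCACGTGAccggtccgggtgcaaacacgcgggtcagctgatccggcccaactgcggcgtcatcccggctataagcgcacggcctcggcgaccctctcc
CLN3: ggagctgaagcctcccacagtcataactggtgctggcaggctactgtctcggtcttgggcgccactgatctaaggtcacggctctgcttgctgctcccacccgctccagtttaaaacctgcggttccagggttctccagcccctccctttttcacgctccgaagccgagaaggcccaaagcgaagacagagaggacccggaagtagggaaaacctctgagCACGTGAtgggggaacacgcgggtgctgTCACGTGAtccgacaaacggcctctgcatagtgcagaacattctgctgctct
GALNS: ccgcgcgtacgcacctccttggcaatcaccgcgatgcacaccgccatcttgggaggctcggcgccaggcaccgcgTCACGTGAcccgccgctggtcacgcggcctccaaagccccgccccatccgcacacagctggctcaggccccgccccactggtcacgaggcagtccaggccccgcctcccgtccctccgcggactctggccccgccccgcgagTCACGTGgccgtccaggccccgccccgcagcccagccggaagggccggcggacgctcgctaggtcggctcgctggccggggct
ATP6V0D1: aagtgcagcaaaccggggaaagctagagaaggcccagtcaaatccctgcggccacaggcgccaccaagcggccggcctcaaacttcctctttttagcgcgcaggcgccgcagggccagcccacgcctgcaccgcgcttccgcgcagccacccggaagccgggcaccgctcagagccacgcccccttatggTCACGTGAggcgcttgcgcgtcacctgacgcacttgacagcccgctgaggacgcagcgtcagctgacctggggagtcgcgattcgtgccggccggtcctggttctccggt
The core CACGTG began 126 bases before the start in NEU1, 47 in CTSD and 59 in ATP6V0D1. CLN3 held it 30 bases and 1 base before the start, and GALNS 174 and 32 bases before it.

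A further pair of windows is shown because motif and response parted there. They parted in other genes too, as ARSB and MCOLN1 hold the motif and did not pass at 24 h. GAA, with a pair of palindromes 76 and 31 bases before its start, did not pass the test at any time, and SCARB2, which had the largest change of all members, had no CACGTG in its window. GAA lies at chr17:80101331-80101630, plus strand. SCARB2 lies at chr4:76213775-76214074, minus strand.
GAA: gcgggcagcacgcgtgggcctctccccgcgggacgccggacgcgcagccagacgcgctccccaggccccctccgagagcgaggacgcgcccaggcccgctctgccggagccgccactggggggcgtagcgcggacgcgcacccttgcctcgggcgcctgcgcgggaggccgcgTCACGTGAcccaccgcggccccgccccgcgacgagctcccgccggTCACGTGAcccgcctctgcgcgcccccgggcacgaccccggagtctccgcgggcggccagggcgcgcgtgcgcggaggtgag
SCARB2: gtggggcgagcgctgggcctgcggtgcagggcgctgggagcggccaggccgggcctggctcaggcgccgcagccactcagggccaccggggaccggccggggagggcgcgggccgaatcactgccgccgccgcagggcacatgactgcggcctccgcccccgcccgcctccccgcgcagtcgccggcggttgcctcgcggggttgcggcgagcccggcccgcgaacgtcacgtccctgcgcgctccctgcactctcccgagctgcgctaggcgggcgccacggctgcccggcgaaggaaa
No match says only that these letters are not in this window.

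In Jurkat cells most of the 43 genes were well expressed, as the plot of their levels shows. PSAP, the precursor of the saposins that help lipid-degrading enzymes, was the highest, with a mean of 320.4 FPKM (300.9 to 361.5 over 17 libraries). GABARAPL2, a ubiquitin-like protein of autophagosomes, averaged 105.3 FPKM, and PPT1, which removes palmitate from proteins, 77.1 FPKM. The proteases CTSD (62.4 FPKM) and CTSC (60.6 FPKM) and the abundant membrane glycoprotein LAMP1 (50.2 FPKM) came next. TFE3 averaged 11.2 FPKM (9.65 to 13.1) and TFEB 2.29 FPKM (1.69 to 3.02), so every TFE3 library stood above every TFEB library. At the low end, SGSH, a heparan sulfatase, averaged 1.16 FPKM. The cysteine proteases CTSH (0.745 FPKM) and CTSZ (0.12 FPKM) and the acid sphingomyelinase SMPD1 (0.601 FPKM) were under 1 FPKM and were not tested.

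**Figure D1:**
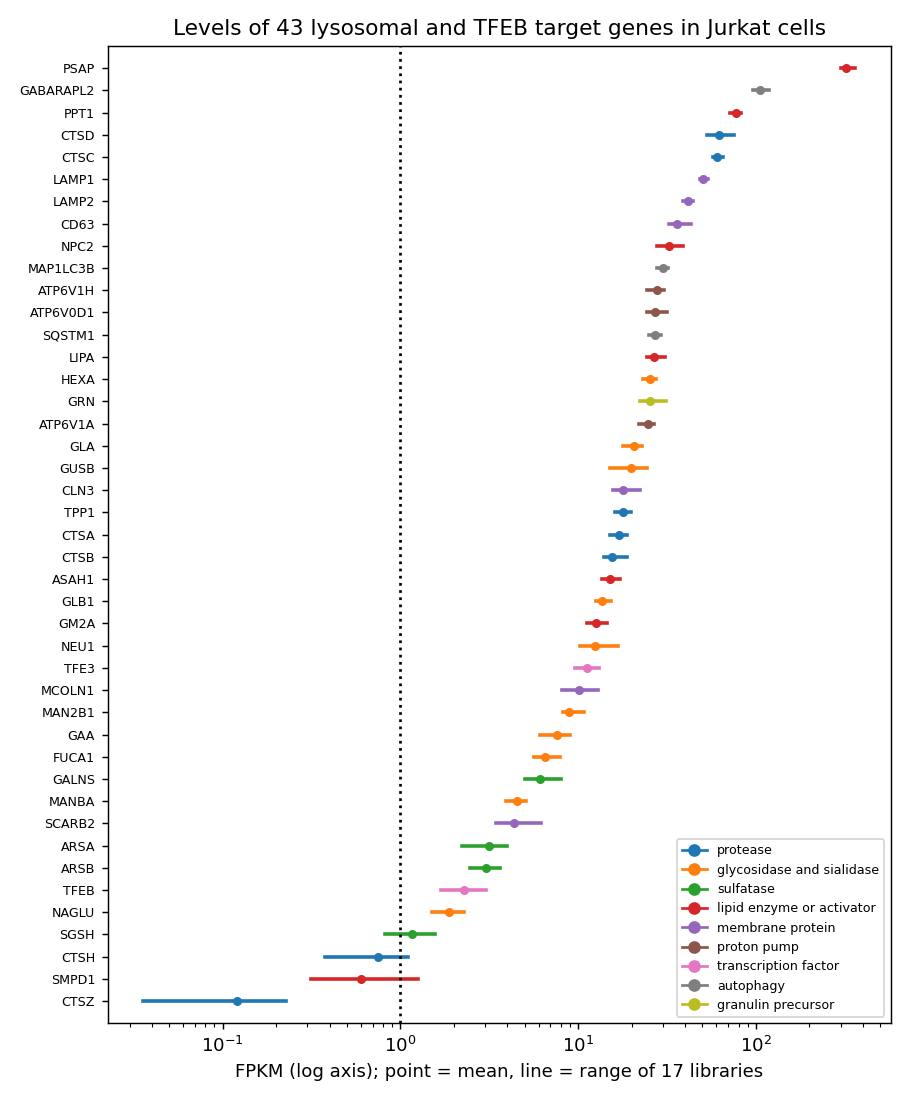
Mean FPKM (points) and the range over 17 libraries (lines) of the 43 genes on a log axis, coloured by role, with the dotted line at 1 FPKM. PSAP stands highest at 320.4 FPKM, CTSH, SMPD1 and CTSZ lie below the line, and TFEB lies below TFE3.

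The comparison of 25 with 0 µg/ml at 24 h, all within lane 4, held the main change. Of the 40 tested genes 18 rose, none fell and 22 did not pass (limma adjusted p under 0.05), a share of 45% called against 16.5% of all 12015 genes tested, of which 10.7% rose and 5.76% fell. The median change was 0.17 on the log2(FPKM + 1) scale, against 0.04 over all genes tested. As the list was chosen with earlier results of these data known, these contrasts are not an independent test. In 27 of 40 genes both treated libraries lay above both untreated ones (37.5% of all genes), and in 1, TPP1, they lay below (23.1%). With replicate 2 of 25 µg/ml at 24 h left out, the changes of the 18 ran from 0.12 (LAMP1) to 0.68 (SCARB2). That fit left 1 library in the group, and it called fewer of the 40 and fewer of all genes. Calls also fell among both when replicate 2 of the untreated 24 h cells was left out.

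GC content moved with this comparison. The members had a median GC content of 52.8%, against 48.1% of genes tested, and across genes the change at 24 h had a Spearman correlation with GC content of 0.26 over the 40 members and 0.44 over 11121 genes, all measured in the same libraries. After each library was corrected for GC content and length, 14 of the 18 still rose (8.89% of all genes did), CTSA (0.08, limma adjusted p = 0.327), LAMP1 (0.04, adjusted p = 0.389), SQSTM1 (0.03, adjusted p = 0.602) and GRN (0.13, adjusted p = 0.0677) did not pass, and TPP1 fell by 0.15 (adjusted p = 0.0454). Among the 14 the correction lowered the change most in TFE3 (0.16), ATP6V0D1 (0.15), PSAP (0.12), CTSD (0.24) and CLN3 (0.22), each by over 1.5 times from the value given below, and SCARB2 stood at 0.67 after it. Over all genes the split was 1286 higher and 692 lower as deposited. It was 758 and 984 with libraries centred on their medians, 951 and 957 with quantile normalization, and 989 and 1176 with the correction. Of the 40 members 15 rose and none fell under median centring, and the same counts came from quantile normalization.

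Among the proteases, CTSD changed most. This aspartic protease stood at 71 and 75.3 FPKM in cells given 25 µg/ml for 24 h, against 56.8 and 53.3 FPKM in untreated cells. The treated libraries lay well above the untreated ones, and CTSD rose by 0.40 (SE 0.049, limma adjusted p = 7.53e-04). The cysteine protease CTSB was at 18.1 and 18.8 FPKM in treated cells, against 14.7 and 15.3 FPKM in untreated cells. It rose by 0.28 (SE 0.054, adjusted p = 0.00755). CTSA, a carboxypeptidase that also shields NEU1 from breakdown, was at 18 and 18.8 FPKM in treated cells, against 15.8 and 15.2 FPKM in untreated cells, and rose by 0.23 (SE 0.055, adjusted p = 0.0193). Its exons overlap those of PLTP and NEURL2 in GENCODE v29, and strandedness of the counting is not given in the sources used here. Exons of CTSD likewise overlap those of AC068580.4, those of SQSTM1 overlap MRNIP and those of GLB1 overlap TMPPE. CTSC, a dipeptidyl peptidase, had a change of 0.02. TPP1, a tripeptidyl peptidase, had the lowest change of the 40 at -0.09, with 17.8 and 19.3 FPKM in treated cells against 19.9 and 19.7 FPKM in untreated cells.

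Of 10 enzymes that trim sugars, 3 rose (10.7% of all genes did). The sialidase NEU1, which removes sialic acid, was at 15.5 and 16.7 FPKM after 24 h at 25 µg/ml, against 10.8 and 10.3 FPKM in untreated cells. The means differed 1.52-fold, and NEU1 rose by 0.57 (SE 0.089, limma adjusted p = 0.00278). GUSB, the beta-glucuronidase that acts on glycosaminoglycans, was at 22.3 and 24.3 FPKM in treated cells, against 16.7 and 15.2 FPKM in untreated cells. It rose by 0.52 (SE 0.067, adjusted p = 9.90e-04), a ratio of means of 1.47. FUCA1, the alpha-L-fucosidase, was at 7.95 and 7.39 FPKM in treated cells, against 5.84 and 5.99 FPKM in untreated cells, and rose by 0.32 (SE 0.077, adjusted p = 0.0174). The other 7 (GLA, GLB1, GAA, HEXA, NAGLU, MANBA and MAN2B1) did not pass. The changes of the 10 ran from -0.03 to 0.57, and the largest that missed was that of the beta-mannosidase MANBA, at 0.22.

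Of 4 sulfatases 1 passed (16.5% of all genes did). GALNS, which cuts sulfate from keratan and chondroitin sulfate, was at 7.23 and 8.02 FPKM in treated cells, against 5.36 and 5.65 FPKM in untreated cells. It rose by 0.41 (SE 0.082, limma adjusted p = 0.00874), and its exons overlap those of TRAPPC2L. ARSA, ARSB and SGSH, all at a mean of 1.16 FPKM or more, did not pass, and the 4 changes ran from -0.01 to 0.41.

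Of 6 tested lipid enzymes and activators, 3 rose (10.7% of all genes did). GM2A, the activator that lifts GM2 ganglioside for breakdown, was at 14.6 and 14.5 FPKM in treated cells, against 11.4 and 11.3 FPKM in untreated cells. It rose by 0.33 (SE 0.058, limma adjusted p = 0.0043). NPC2, which hands cholesterol to NPC1 inside the lysosome, was at 35.5 and 35.9 FPKM in treated cells, against 29.8 and 28.2 FPKM in untreated cells, and rose by 0.29 (SE 0.071, adjusted p = 0.0195). PSAP was at 350.6 and 361.5 FPKM in treated cells, against 311.8 and 301.8 FPKM in untreated cells. The step was small beside its level, 0.21 on the log2 scale (SE 0.043, adjusted p = 0.00898). Both treated libraries lay above both untreated ones, as in 37.5% of all genes. LIPA, ASAH1 and PPT1, which act on cholesteryl esters, ceramide and palmitoylated proteins, did not pass. SMPD1, too low to test, was at 0.828 and 1.26 FPKM in treated cells and 0.349 and 0.594 FPKM in untreated cells.

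Among the membrane proteins SCARB2 changed most. Its product, LIMP-2, is an abundant protein of the lysosomal membrane. SCARB2 was at 6.19 and 5.87 FPKM in cells given 25 µg/ml for 24 h, against 3.55 and 3.45 FPKM in untreated cells. That is a ratio of means of 1.72 and a rise of 0.64 (SE 0.095, limma adjusted p = 0.00205). CLN3, the membrane protein lost in juvenile Batten disease, was at 20.2 and 22.2 FPKM in treated cells, against 17.1 and 15.8 FPKM in untreated cells, and rose by 0.35 (SE 0.070, adjusted p = 0.00857). Exons of APOBR overlap it. LAMP1 was at 53.6 and 53 FPKM in treated cells, against 48.7 and 50 FPKM in untreated cells. Its rise of 0.11 (SE 0.032, adjusted p = 0.0437) lay close to the threshold and was lost under 23 of 30 other settings. LAMP2, the tetraspanin CD63 and the calcium channel MCOLN1 did not pass, and MCOLN1 had the largest change that missed, 0.23, with 11.1 and 12.9 FPKM in treated cells against 10.2 and 10 FPKM in untreated cells.

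Of 3 proton pump subunits, 1 rose (10.7% of all genes did). ATP6V0D1, of the membrane sector, was at 31.5 and 31.4 FPKM in treated cells, against 27.5 and 24.3 FPKM in untreated cells, and rose by 0.27 (SE 0.057, limma adjusted p = 0.0104), or by 0.15 (adjusted p = 0.0391) after the GC and length correction. ATP6V1A and ATP6V1H, of the cytosolic sector, did not pass.

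Both transcription factors rose at 24 h (10.7% of all genes did). TFEB was at 2.96 and 2.8 FPKM in cells given 25 µg/ml, against 1.91 and 1.94 FPKM in untreated cells. Its ratio of means was 1.49, and it rose by 0.41 (SE 0.077, limma adjusted p = 0.00679), on a scale that understates the change of a gene this low. TFE3 was at 12.4 and 13.1 FPKM in treated cells, against 10.7 and 9.65 FPKM in untreated cells, and rose by 0.30 (SE 0.063, adjusted p = 0.0109), or by 0.16 (adjusted p = 0.0355) after the GC and length correction. For either factor both treated libraries lay above both untreated ones, as in 37.5% of all genes.

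Of 3 autophagy genes 1 rose (10.7% of all genes did). SQSTM1, the receptor that brings ubiquitinated cargo to autophagosomes, was at 28.4 and 28.7 FPKM in treated cells, against 26.1 and 25.1 FPKM in untreated cells, and rose by 0.15 (SE 0.043, limma adjusted p = 0.0369), a call lost under 19 of 30 other settings. GABARAPL2 (0.03) and MAP1LC3B (-0.01) did not pass, and reads of MAP1LC3B may be shared with the near-identical MAP1LC3B2. GRN, the precursor of the granulins, which lysosomal proteases release, was at 29.8 and 31.3 FPKM in treated cells, against 25.6 and 24.4 FPKM in untreated cells. It rose by 0.28 (SE 0.043, adjusted p = 0.00244).

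**Figure D2:**
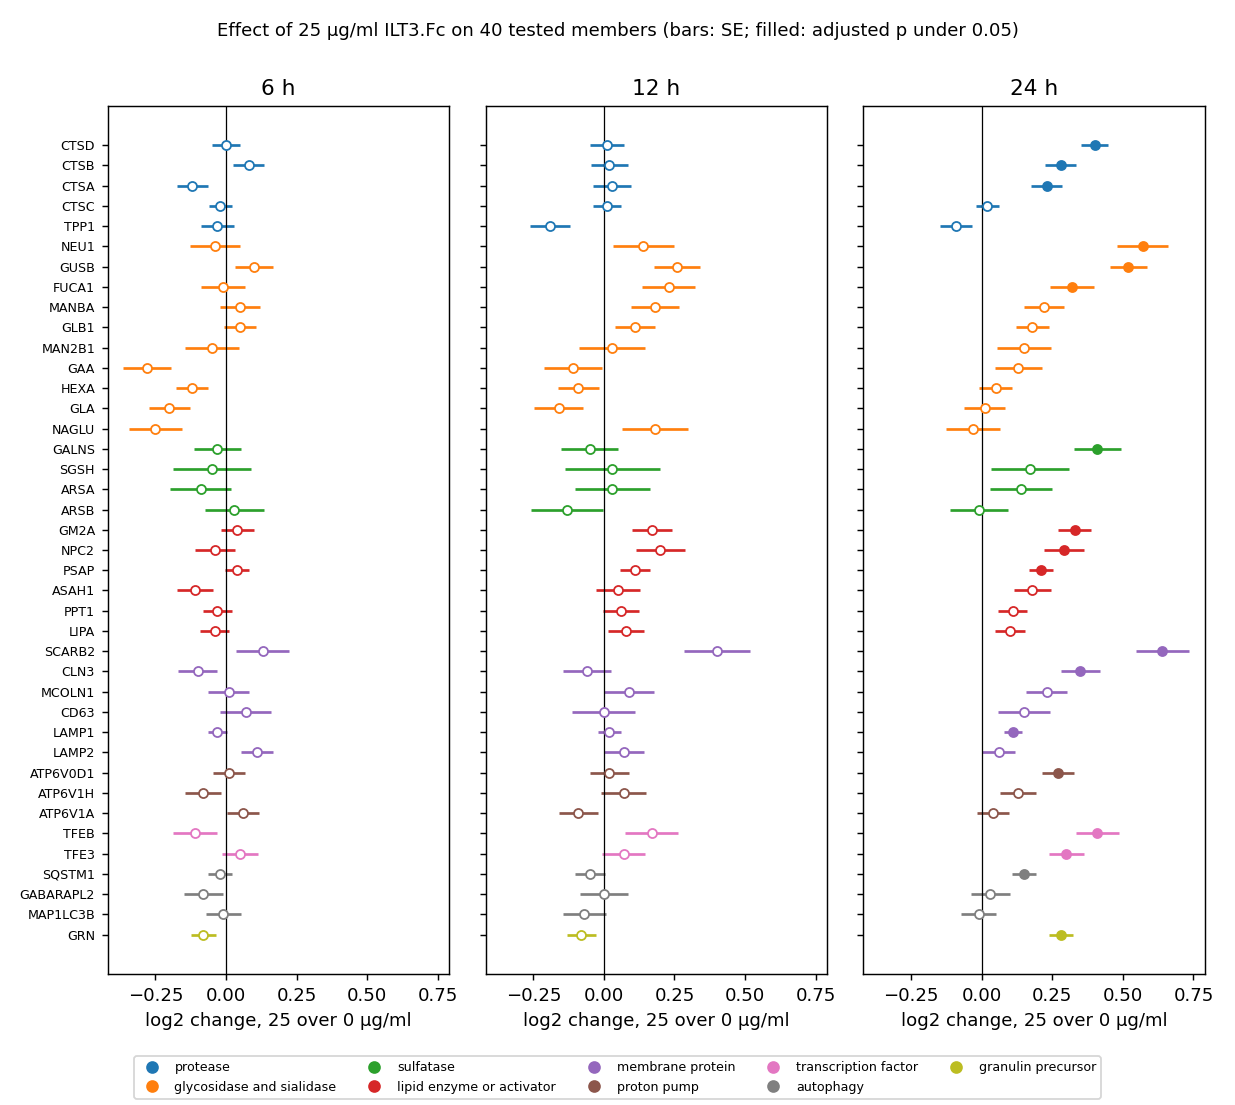
Log2 change of each of the 40 tested genes (points; bars are SE) at 25 over 0 µg/ml after 6, 12 and 24 h, grouped and coloured by role; filled points passed at a limma adjusted p under 0.05. No point is filled at 6 or 12 h, and 18 are filled at 24 h, led by SCARB2 at 0.64.

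Earlier, the same comparison gave no call. At 6 h none of the 40 genes passed the limma test (0.225% of all genes did), 3 had an unadjusted p under 0.05 (10.3% of all genes did), and the median change was -0.03. The 3 lay on the lower side: the glycogen-degrading enzyme GAA at -0.28, NAGLU at -0.25 and GLA at -0.20. Both treated libraries lay above both untreated ones in 7 of 40 genes (23.4% of all genes) and below them in 12 (25.9%). GAA was at 6.92 and 7.62 FPKM in treated cells, against 9.07 and 9.01 FPKM in untreated cells, and its adjusted p was 0.273. TFEB stood at -0.11 (SE 0.077) and TFE3 at 0.05 (SE 0.063). NAGLU and GLA are named although they fall outside the naming rule, chosen after their values were seen.

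At 12 h, where 1 untreated library was assumed to vary like the other groups, none passed the limma test (0.0499% of all genes did), 6 had an unadjusted p under 0.05 (8.61% of all genes did), and the median change was 0.03. SCARB2 had the largest change, 0.40 (SE 0.117, adjusted p = 0.329), with 5.18 and 4.68 FPKM in treated cells against 3.51 FPKM in the untreated library. TFEB was at 2.33 and 2.47 FPKM in treated cells, against 2.03 FPKM in the untreated library, a value of 0.17 (SE 0.094). TFE3 stood at 0.07. The treated libraries lay above the untreated one in 22 of 40 genes (43.0% of all genes) and below it in 10 (32.7%).

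The difference between the effects at 24 and 6 h was tested directly. For 7 of 40 genes (17.5%) the effect of 25 µg/ml was larger at 24 h and for none smaller, against 3.30% of all genes called and 2.35% called as larger. They were NEU1 (difference of 0.60, SE 0.125, limma adjusted p = 0.0326), TFEB (0.52, SE 0.109, adjusted p = 0.0332), CLN3 (0.45, SE 0.099, adjusted p = 0.039), GUSB (0.42, SE 0.094, adjusted p = 0.0391), CTSD (0.40, SE 0.070, adjusted p = 0.0172), GRN (0.36, SE 0.060, adjusted p = 0.0172) and CTSA (0.35, SE 0.078, adjusted p = 0.0409). The median difference was 0.21 over the 40 genes and 0.04 over all genes. For TFE3 the difference was 0.25 (SE 0.089, adjusted p = 0.137). After the GC and length correction 2 of the 7 passed, NEU1 at 0.53 (adjusted p = 0.041) and CLN3 at 0.29 (adjusted p = 0.0386). TFEB (0.35, adjusted p = 0.0962), GUSB (0.31, adjusted p = 0.0612), CTSD (0.15, adjusted p = 0.139), GRN (0.14, adjusted p = 0.267) and CTSA (0.14, adjusted p = 0.325) did not, and NPC2 and SCARB2 were called in their place. The calls without the correction rested on few libraries. Calls among all genes fell or rose along with those of the members when a library named here was left out. None was left without replicate 2 of 25 µg/ml at 24 h, replicate 2 of the untreated 24 h cells, either untreated 6 h library or replicate 2 of 25 µg/ml at 6 h. There were 2 without replicate 1 of 25 µg/ml at 6 h or any treated 12 h library, 4 without replicate 1 of the untreated 24 h cells, and 13 without either 12.5 µg/ml library at 6 h. Within lane 4 none was called, and few of all genes were.

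Time was also read at each dose apart. In cells kept at 25 µg/ml, 14 of 40 genes were higher at 24 than at 6 h and none was lower (19.1% of all genes were called, 11.8% as higher), in a comparison added after the data were seen. TFEB rose most, with 2.96 and 2.8 FPKM at 24 h against 1.69 and 1.81 FPKM at 6 h, a change of 0.50 (SE 0.077, limma adjusted p = 0.00219). NEU1 rose by 0.43 (SE 0.089, adjusted p = 0.00772) and GRN by 0.38 (SE 0.043, adjusted p = 6.09e-04). SCARB2, CLN3, CTSD, GALNS, CTSB, GM2A, TFE3, ATP6V0D1, PSAP, GLB1 and LAMP1 rose by 0.10 to 0.37. Without either 25 µg/ml library at 6 h, fewer of the 40 and fewer of all genes were called. The same held without replicate 2 of 25 µg/ml at 24 h. The GC and length correction kept 9 of the 14. It ended the calls of ATP6V0D1 (0.10, adjusted p = 0.142), TFE3 (0.11, adjusted p = 0.121), GALNS (0.19, adjusted p = 0.1), GLB1 (0.13, adjusted p = 0.143) and LAMP1 (0.07, adjusted p = 0.146), and CTSD stood at 0.12, GRN at 0.23 and PSAP at 0.11 after it. No call among the 40 was made within lane 4, where few of all genes were called.

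In untreated cells 29 of the 40 genes had a negative change from 6 to 24 h, with a median of -0.07 against -0.02 over all genes. The call in this comparison was CTSA (2.33% of all genes were called, 1.77% as lower), at 15.8 and 15.2 FPKM at 24 h against 18.3 and 18.9 FPKM at 6 h. It fell by 0.24 (SE 0.055, limma adjusted p = 0.0479). The call was lost without any 1 of 10 libraries (both of the untreated 24 h, untreated 6 h, 25 µg/ml 6 h, 12.5 µg/ml 12 h and 25 µg/ml 12 h groups), within lane 4 and with the GC and length correction (-0.18, adjusted p = 0.0619). Without either 12.5 µg/ml library at 6 h, more members and more of all genes were called. TFEB was at 1.91 and 1.94 FPKM at 24 h and 2.14 and 1.81 FPKM at 6 h, which overlap. All comparisons with the untreated 24 h cells share those 2 libraries.

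**Figure D3:**
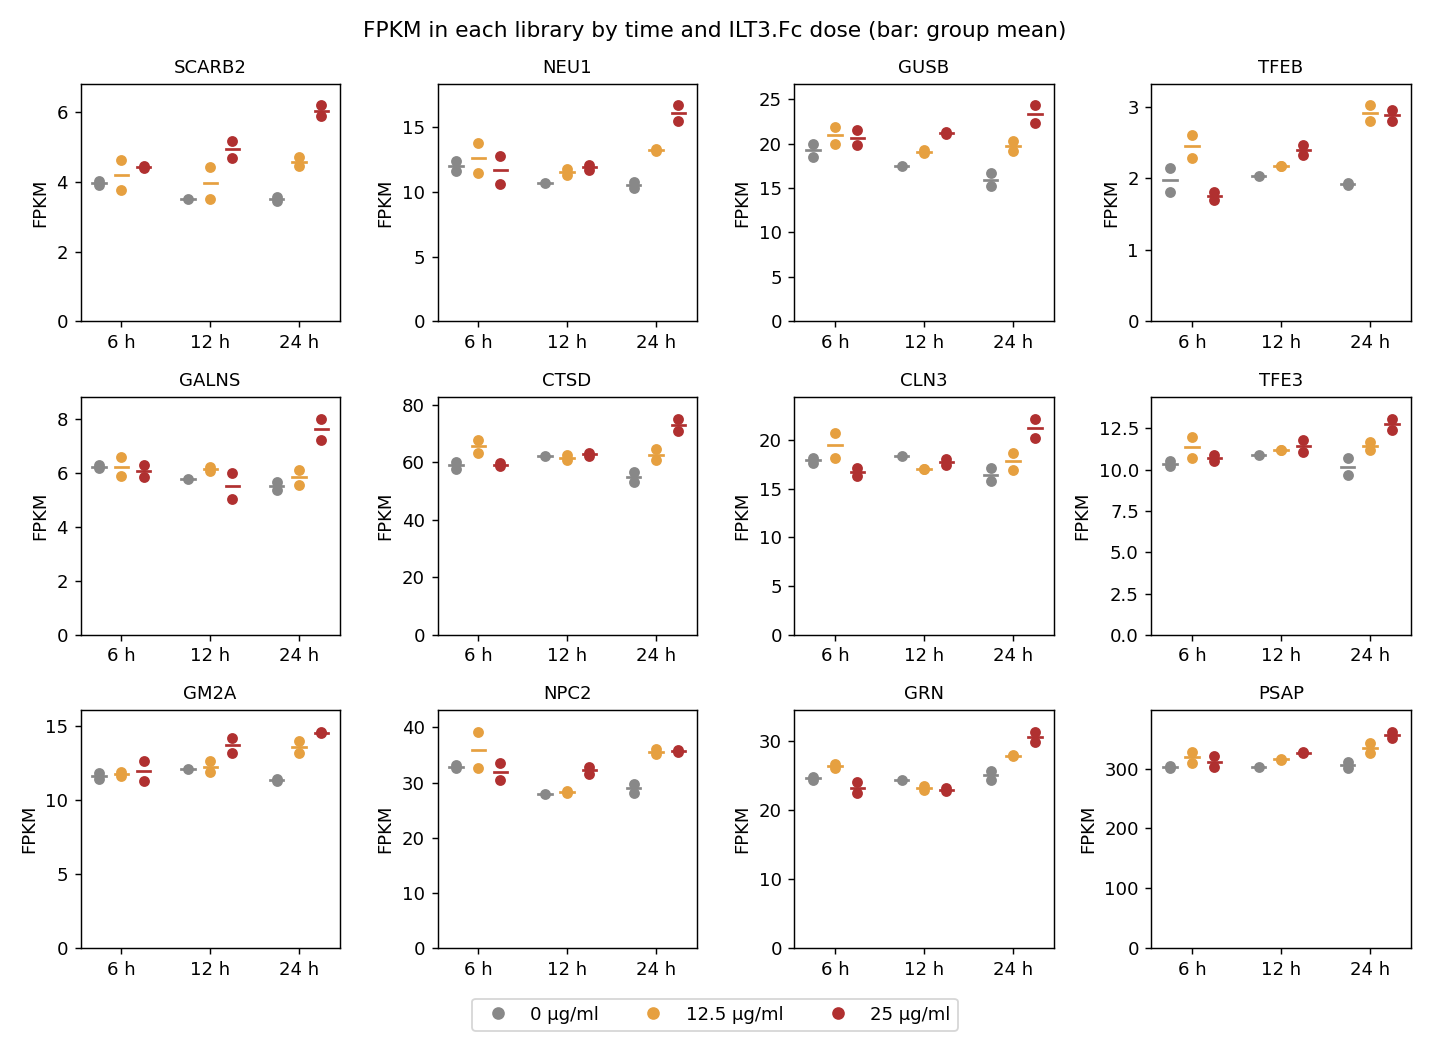
FPKM in each library (points) and the group mean (bars) for 12 of the genes by time and dose, each panel with its own axis from 0. At 24 h every 25 µg/ml library stands above both untreated libraries in all 12 panels, and the 12.5 µg/ml libraries of TFEB and NPC2 lie at about the 25 µg/ml level.

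At 24 h the mean FPKM was higher at each step of dose in 27 of the 40 genes (36.5% of all genes) and lower at each step in 1, ARSB (23.0% of all genes). NEU1 averaged 10.6 ± 0.399 FPKM in untreated cells, 13.3 ± 0.0704 FPKM at 12.5 µg/ml and 16.1 ± 0.873 FPKM at 25 µg/ml (SD, n = 2 each). SCARB2 averaged 3.5 ± 0.0748 FPKM in untreated cells, 4.58 ± 0.172 FPKM at 12.5 µg/ml and 6.03 ± 0.228 FPKM at 25 µg/ml. In both genes the 12.5 µg/ml libraries lay between the other groups without overlap.

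TFEB had nearly the same mean at both doses. It averaged 1.93 ± 0.0175 FPKM in untreated cells, 2.91 ± 0.149 FPKM at 12.5 µg/ml and 2.88 ± 0.109 FPKM at 25 µg/ml (SD, n = 2 each). So did NPC2, with 29 ± 1.12, 35.6 ± 0.687 and 35.7 ± 0.274 FPKM at 0, 12.5 and 25 µg/ml. GALNS, in contrast, averaged 5.51 ± 0.208, 5.84 ± 0.389 and 7.63 ± 0.557 FPKM at 0, 12.5 and 25 µg/ml, and ATP6V0D1 25.9 ± 2.27, 26 ± 1.01 and 31.5 ± 0.0873 FPKM at the same doses, so that their 12.5 µg/ml means lay near the untreated ones. Whether these dose patterns differ between genes was not tested.

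None of the 40 genes was called at either dose step. For 12.5 against 0 µg/ml at 24 h, a comparison added after the data were seen, the limma test called none of the 40 (0.117% of all genes) and 12 had an unadjusted p under 0.05 (9.71% of all genes did), all on the higher side, with a median change of 0.08. Both 12.5 µg/ml libraries lay above both untreated ones in 17 of the 40 genes (24.7% of all genes) and below them in 2, ARSA and TPP1 (18.4%). TFEB came nearest, at 0.42 (SE 0.077, adjusted p = 0.0891), and TFE3 stood at 0.16 (SE 0.063, adjusted p = 0.452). Without either 12.5 µg/ml library at 6 h some of the 40 were called, and calls among all genes rose as well. For 25 against 12.5 µg/ml at 24 h, also added, none was called (0.350% of all genes) and 18 had an unadjusted p under 0.05 (16.7% of all genes did), all on the higher side, with a median of 0.09. There TFEB stood at -0.01 (SE 0.077, adjusted p = 0.964) and TFE3 at 0.14. Some of the 40 were called without replicate 1 of 25 µg/ml at 24 h or without either 12.5 µg/ml library at 6 h. Calls among all genes rose in those fits as well.

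Over all times together the dose steps gave no limma call either. For 12.5 against 0 µg/ml 0.283% of all genes were called, and 13 of the 40 had an unadjusted p under 0.05 (10.9% of all genes did), 12 of them on the higher side. For 25 against 12.5 µg/ml 0.283% of all genes were called, and 6 of the 40 had an unadjusted p under 0.05 (11.9% of all genes did). Without replicate 2 of 12.5 µg/ml at 6 h members were called in both steps, and calls among all genes rose as well.

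For 25 against 0 µg/ml over all times, the mean of the 3 effects, 8 of 40 genes rose and none fell, a share of 20% against 9.47% of all genes (5.47% rose). They were CTSB, CTSD, NEU1, GUSB, FUCA1, PSAP, GM2A and SCARB2. SCARB2 led with 0.39 (SE 0.059, limma adjusted p = 0.00312), and it was the 1 gene of 40 in which every library at 25 µg/ml lay above every untreated one (2.98% of all genes). No member lay below in the same way (2.31% of all genes). GUSB rose by 0.29 (SE 0.042, adjusted p = 0.00213). Over 31 other settings the call was lost under 17 for CTSB, 18 for FUCA1 and 15 for NEU1. TFE3 at 0.14 (SE 0.039, adjusted p = 0.0504) and TFEB at 0.15 (SE 0.048, adjusted p = 0.0696) missed the threshold.

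The calls over all times were lost without the 24 h libraries, as were most calls among all genes. With them left out none of the 40 was called (7 had an unadjusted p under 0.05). Of all genes 0.383% were called, against 9.47% with them. SCARB2 stood at 0.26 (limma adjusted p = 0.233) and GUSB at 0.18 (adjusted p = 0.168). Within lane 4 and within lane 5 none was called, and few of all genes were. Fewer of the 40 and fewer of all genes were called without replicate 2 of the untreated 24 h cells or either untreated 6 h library. The same held without either 25 µg/ml library at 6 h or at 12 h. More of both were called without either 12.5 µg/ml library at 6 h.

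**Figure D4:**
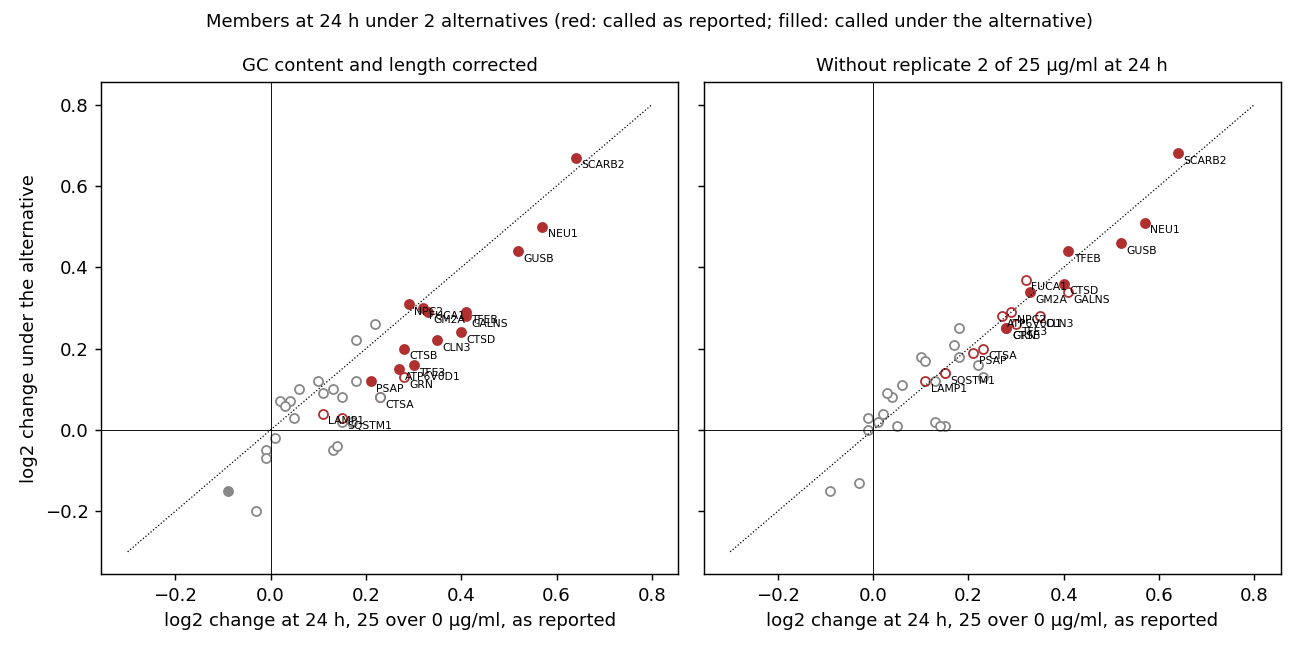
Log2 change of the 40 members at 24 h, 25 over 0 µg/ml, as reported (horizontal axis) and with the GC and length correction or without replicate 2 of 25 µg/ml at 24 h (vertical axes); red marks the 18 genes called as reported, filled points are called under the alternative, and the dotted line marks equal values. SCARB2, NEU1 and GUSB stay far to the upper right in both panels, and 14 of the 18 are filled after the correction.

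Motif and response were set side by side for the 29 tested genes with a promoter window. Of 10 with TCACGTG, 7 rose at 24 h, with a median change of 0.25. Of 19 without it, 9 rose, with a median change of 0.15 (10.7% of all genes tested rose). These values are from before the GC and length correction. After it CTSA and LAMP1, with the motif, and SQSTM1 and GRN, without it, were no longer called. The corrected changes ran from -0.05 to 0.50 with the motif and from -0.15 to 0.67 without it. The medians of the groups lay close together after the correction, so the higher median with the motif was not kept. The difference between the groups was not tested, and all these genes were measured in the same libraries.

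Other lysosomal genes were listed by family to set the 43 in their pathway, also with earlier results of these data known. Of 18 other lysosomal membrane proteins 9 rose and none fell at 24 h, with a median of 0.14, against 10.7% higher, 5.76% lower and a median of 0.04 over all genes. Among those that rose over all times, the cystine exporter CTNS rose by 0.22 (SE 0.048, limma adjusted p = 0.0172) and the sialic acid exporter SLC17A5 by 0.20 (SE 0.040, adjusted p = 0.0107). NPC1, which moves cholesterol out of the lysosome and receives it from NPC2, rose by 0.17 (SE 0.039, adjusted p = 0.0231), and OSTM1, partner of the chloride transporter CLCN7, by 0.14 (SE 0.041, adjusted p = 0.0496), a call lost under 22 of 31 other settings.

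In the share called, the remaining families lay nearer to all genes (16.5% at 24 h, 9.47% over all times). Of 24 other lysosomal enzymes 3 rose and none fell at 24 h, a share of 12.5%. Their median was 0.14, against 0.04 over all genes. The change was positive in 22 of the 24, against 7078 of 12015 genes. Over all times the acid phosphatase ACP2 (0.18) and the phospholipase PLA2G15 (0.20) rose, calls lost under 13 and 16 of 31 other settings. Of 14 other V-ATPase subunits 3 rose and none fell at 24 h, a share of 21.4% (median 0.07). Over all times ATP6V0A1 (0.14) and ATP6V1C1 (0.10) rose, a share of 14.3%, and these calls were lost under 18 and 19 of 31 other settings.

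In the mannose 6-phosphate and sorting list 1 of 12 rose and 1 fell at 24 h, a share of 16.7% called (median 0.05). They were the adaptor GGA3, which rose by 0.19 over all times, and AP3B1 of the AP-3 coat, which fell by 0.14. Of 17 other autophagy genes 3 rose and 1 fell at 24 h, a share of 23.5% (median 0.06). Over all times ATG9A, which supplies membrane to autophagosomes, rose by 0.18, and BECN1 and ATG7 fell by 0.12 each, a share of 17.6%. Over 31 other settings the call was lost under 17 for ATG9A, 20 for BECN1 and 22 for ATG7. Of 15 genes for the other TFEB relatives and their nutrient control, 1 rose at 24 h and none fell, a share of 6.67% (median 0.07). It was FLCN, which acts on the Rag GTPases that recruit TFEB and TFE3 to the lysosome, at 0.31 (SE 0.070, adjusted p = 0.0149), named after its value was seen.

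**Figure D5:**
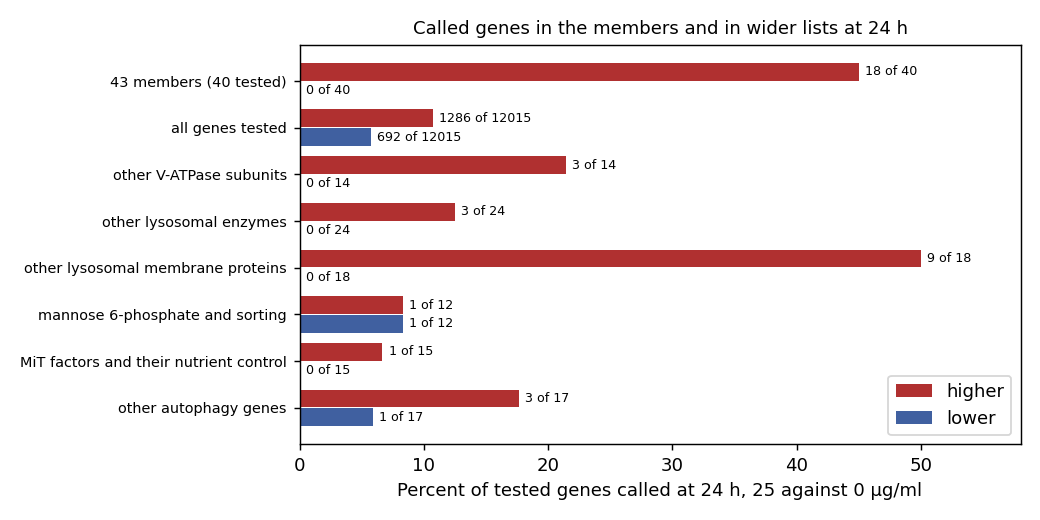
Percent of tested genes called higher (red) and lower (blue) at 24 h, 25 against 0 µg/ml, for the members, all genes tested and the wider families, with the counts printed beside the bars, which start at 0. The members (18 of 40) and other lysosomal membrane proteins (9 of 18) have the highest shares, against 1286 of 12015 genes overall.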

How the data were processed

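The authors deposited the RNA-seq as 1 table of FPKM values, 17 columns wide. TopHat2 2.1.0 is named in the submitters' processing notes. The sources used here do not give the quantifier, genome build, annotation or strandedness. FPKM keeps no read counts, so no count test was run; relative depth came from the steps between low values of 6620 genes. The table held 25593 lines, and each of 45 repeated symbols was taken from its line of highest mean. The 12015 genes averaging 1 FPKM or more were tested on log2(FPKM + 1), which understates changes of low genes. limma 3.58.1 in R 4.3.3 fitted 9 group means with 8 residual and 3.0 prior degrees of freedom and a variance trend. Tests were two-sided, with Benjamini-Hochberg adjustment over the whole set of tested genes. The steps were tested on simulated data.

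The members and wider lists were chosen with earlier results of these data known. Members called in a comparison are named with their change, error and adjusted p; TFEB and TFE3 are always given; other members are given by level and by range of change, and wider-list genes are named where called over all times, except some that are not reported here. The alternatives were a pseudocount of 0.1, other filters (none, or a mean of 5 FPKM), median centring, quantile normalization, no trend, lane as a covariate or each lane alone, only the groups compared, leaving out 12 h or 24 h or single libraries, a replicate block, and a loess correction (span 0.3) for GC content and length from GENCODE v29, matched by symbol for 11121 genes (92.6%). The comparisons of 12.5 with 0 and 25 with 12.5 µg/ml at 24 h, and of 24 with 6 h at 25 µg/ml, were added after seeing the data. Promoter windows are from RefSeq on GRCh38.p14; no coordinate was taken from the deposited table.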

Additional observations from a re-analysis of the deposited data

Results flagged for a closer look

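For 7 of the 40 tested genes the effect of 25 µg/ml differed between 24 and 6 h (limma adjusted p under 0.05). The difference itself was tested, and in each of the 7 the effect was larger at 24 h. Of all genes 3.30% were called, 2.35% as larger. The calls rested on few libraries, as described above. The difference in log2 change was 0.60 for NEU1, 0.52 for TFEB, 0.45 for CLN3, 0.42 for GUSB, 0.40 for CTSD, 0.36 for GRN and 0.35 for CTSA. At 24 h the effect on these genes was between 0.23 (CTSA) and 0.57 (NEU1), and at 6 h between -0.12 (CTSA) and 0.10 (GUSB). After the GC and length correction NEU1 (0.53) and CLN3 (0.29) passed, and TFEB (0.35), GUSB (0.31), CTSD (0.15), GRN (0.14) and CTSA (0.14) did not.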

How the results depend on the processing

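No call of a member in any comparison, and no named call of a wider list over all times, reversed its direction under the settings tried. Nor did TFEB or TFE3 over all times. The split over all genes did turn, from more higher to more lower, under median centring, quantile normalization and the GC correction. Among members not called at 24 h, that correction changed the sign of GAA (0.13 to -0.05), ARSA (0.14 to -0.04) and GLA (0.01 to -0.02). For 25 against 0 µg/ml over all times, the 8 calls became 5 with no filter on low values, 4 under median centring (3 higher, 1 lower), 5 without the 12 h libraries, 0 without the 24 h libraries, 0 in lane 4, 0 in lane 5 and 14 with the GC correction and replicate block (12 higher, 2 lower, with the 8 among them). The 1138 genes called among all tested (657 higher, 481 lower) became 42 in lane 4, 8 in lane 5, 488 without 12 h, 46 without 24 h, 1998 with the GC correction (896 higher, 1102 lower) and 1880 with that and the block; the split was 393 and 765 under median centring and 539 and 653 under quantile normalization. At 24 h the 18 calls became 10 in lane 4 and 0 when only the 4 libraries compared were fitted, where few residual degrees of freedom are left. The 7 differences between the effects at 24 and 6 h became 3 with no filter, 3 under median centring, 2 under quantile normalization, 0 in lane 4, 1 with only the groups compared (SCARB2, not among the 7), 0 without 12 h, and 4 with the replicate block, all among the 7. With the GC correction, alone or with the block, there were also 4, of which 2 were among the 7 (NEU1 and CLN3) and 2 were others (NPC2 and SCARB2). In untreated cells the 1 call became 0 with no filter, median centring, quantile normalization, no trend, lane as covariate, lane 4, only the groups compared, without 12 h or with the block. CTSA was also lost with the GC correction, where 2 other members were called lower (GUSB and NPC2), and with both, where 3 others were. At 25 µg/ml the 14 calls between 24 and 6 h became 9 with lane as covariate and 0 in lane 4 or with only the groups compared; with the GC correction there were 13, of which 9 were among the 14. The dose steps, with 0 calls, gave 2 for 12.5 against 0 µg/ml over all times with the GC correction and block; at 24 h, 3 for that step with the GC correction and 2 with both, and 1 for 25 against 12.5 µg/ml with either. The cause of these changes was not tested.

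Leaving out 1 library at a time gave 4 to 13 calls over all times, 613 to 2034 among all genes, 7 to 21 at 24 h, 0 to 0 at 6 h and at 12 h, 0 to 13 for the difference between times, 0 to 3 for untreated cells and 4 to 16 for 24 against 6 h at 25 µg/ml. For 12.5 against 0 µg/ml it gave 0 to 7 over all times and 0 to 2 at 24 h, and for 25 against 12.5 µg/ml 0 to 1 and 0 to 3. Without the single untreated 12 h library the effects at 12 h and over all times could not be fitted.

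Pairing by replicate number was not evident: over 28 pairs of groups the correlation of their deviations ran from -0.18 to 0.13. These deviations also hold the GC and length effects of single libraries, so the check cannot exclude pairing. With the replicate block 8 members were called over all times (FUCA1 was lost, at an adjusted p of 0.0524, and NPC2 gained), 17 at 24 h, 4 for the difference between times and 0 in untreated cells. Of the wider lists the block ended the calls of BECN1 (0.0612), ATG7 (0.0625), ATP6V1C1 (0.0625), OSTM1 (0.0639) and ATP6V0A1 (0.0504), each value an adjusted p. Absolute depth is unknown, so low genes such as TFEB carry an error that cannot be split into counting and other parts.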
